A study of Rattus norvegicus with 16 samples.

Results

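Arntl, Npas2 and Clock encode the activating arm of the circadian clock, and their expression was followed in the renal tissue of rats with diabetic nephropathy (DN) that were or were not given sinomenine (SIN). The members were the rows of the deposited table that carry these 3 gene names, and each name matched 1 row, so that 3 of the 35849 genes of the table are described in full. Their identifiers are ENSRNOG00000014448 for Arntl, ENSRNOG00000013408 for Npas2 and ENSRNOG00000002175 for Clock. RNA sequencing was done on 16 male Sprague Dawley rats, 4 per group, which were 6 to 8 weeks old when the experiment began. The normal group had an injection of citrate buffer and a normal diet, and is marked as sham. The DN group had streptozotocin (STZ) at 45 mg/kg, a blood glucose over 16.7 mmol/L as the entry criterion, a diet rich in glucose and fat, and vehicle. The SIN (20 mg/kg) group and the SIN (40 mg/kg) group had the same STZ and diet and were given SIN, an alkaloid, by gavage each day for 8 weeks. STZ and the diet always went together, so the 2 cannot be told apart in these groups, and no group received SIN without STZ. The samples came from whole renal tissue, in which fewer cells of a type and less RNA per cell cannot be told apart. The hour at which the kidneys were taken is not given in the sources used here. For clock genes, a change in level, a shift in the daily rhythm and a different hour between groups therefore cannot be told apart.

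BMAL1, the product of Arntl, is a bHLH-PAS protein that binds DNA as a dimer with CLOCK or with its close relative NPAS2. These dimers switch on genes that carry an E-box, among them the Per and Cry genes, whose products return to the nucleus and hold the dimer back. A second loop acts on Arntl itself, where the REV-ERB receptors (Nr1d1, Nr1d2) repress and the ROR receptors, such as Rora, activate transcription through the same short element, the RORE. The kidney has a clock of its own, which sets daily rhythms in the transport of salt and water.

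The promoters of the members are shown because the REV-ERB and ROR receptors are measured in the same table. The sequences were taken from RefSeq (GRCr8, while the authors aligned to Rnor_6.0), and each stretch holds the 100 bases before an annotated start, on the plus strand. Capitals mark a RORE (TAGGTCA or TGGGTCA) or its variant TAGGTTA, and both strands were searched.
Arntl, chr1:176766228-176766327: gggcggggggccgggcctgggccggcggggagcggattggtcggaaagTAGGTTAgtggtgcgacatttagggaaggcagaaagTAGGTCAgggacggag
Npas2, chr9:48959465-48959564: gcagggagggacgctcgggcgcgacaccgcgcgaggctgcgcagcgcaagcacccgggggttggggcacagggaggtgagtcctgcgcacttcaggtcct
Clock, chr14:32262650-32262749: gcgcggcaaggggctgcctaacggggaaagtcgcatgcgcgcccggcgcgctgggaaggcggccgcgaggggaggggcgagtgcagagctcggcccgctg
The Arntl promoter held TAGGTCA at bases 16 to 10 before the start and TAGGTTA at bases 52 to 46 before it. Of 33469 promoters of the same length, 250 bases before the start, 5.62% held a RORE and 1.42% held the variant. No RORE or variant was matched within 250 bases before the start of Npas2 or before either of the 2 Clock starts in RefSeq. None of the members' promoters held an E-box (CACGTG, in 5.59% of promoters), its variant CACGTT (in 4.07%) or a D-box (TTATGTAA or TTACGTAA, in 0.932%) in that window. These matches describe the letters only.

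Expression of Arntl was highest in the normal group, lower in the DN group and lowest in the 2 SIN groups. Values are CPM, estimated counts scaled to a common library size and for library composition over all 16 rats. In the normal group Arntl stood at 40.0, 43.9, 37.0 and 32.6 CPM (mean 38.4 ± 4.78, SD, n = 4). DN rats stood at 17.3, 19.5, 10.3 and 20.3 CPM (16.9 ± 4.56). Every DN rat lay below every normal rat, and DN replicate 3 was the lowest of its group. The rats given SIN at 20 mg/kg stood at 6.51, 3.30, 2.42 and 4.10 CPM (4.08 ± 1.75), and those given 40 mg/kg at 5.19, 4.92, 4.86 and 7.51 CPM (5.62 ± 1.27). Each SIN rat lay below each DN rat, whereas the 2 SIN groups overlapped. Relative to the normal mean, Arntl was at 43.9% in DN rats, 10.6% with SIN at 20 mg/kg and 14.6% with SIN at 40 mg/kg. These levels rest on 737 to 899 estimated counts per normal rat, and on 48 to 157 per SIN rat.

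Npas2 had the same order of groups at lower levels. Its CPM was 19.3, 19.7, 15.4 and 12.2 in normal rats (16.7 ± 3.51, SD, n = 4) and 5.04, 5.16, 4.62 and 7.50 in DN rats (5.58 ± 1.30). It was 1.55, 1.39, 1.01 and 1.27 at 20 mg/kg of SIN (1.31 ± 0.228) and 1.62, 3.61, 2.101 and 3.16 at 40 mg/kg (2.62 ± 0.918). No neighbouring groups in this order overlapped, and each rat of the SIN (40 mg/kg) group lay above each rat of the SIN (20 mg/kg) group. The mean was 33.5% of the normal mean in DN rats, 7.84% at the lower dose and 15.7% at the higher dose. In the SIN (20 mg/kg) group these values rest on only 20 to 36 estimated counts per rat.

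Clock, the usual partner of BMAL1, did not share that order. Its CPM was 59.0, 46.0, 70.9 and 64.3 in normal rats (60.1 ± 10.6, SD, n = 4) and 26.2, 37.4, 34.7 and 36.3 in DN rats (33.6 ± 5.06). With SIN it was 57.0, 32.1, 41.5 and 31.2 at 20 mg/kg (40.5 ± 12.0) and 38.5, 32.3, 28.8 and 48.6 at 40 mg/kg (37.0 ± 8.70). All DN rats were below all normal rats, while the DN group and the 2 SIN groups overlapped with each other. Replicate 1 of the SIN (20 mg/kg) group and replicate 4 of the SIN (40 mg/kg) group reached into the normal range, and the other 6 SIN rats lay below it. The means were 56.0% of normal in DN rats, 67.4% at the lower dose and 61.7% at the higher dose.

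**Figure D1:**
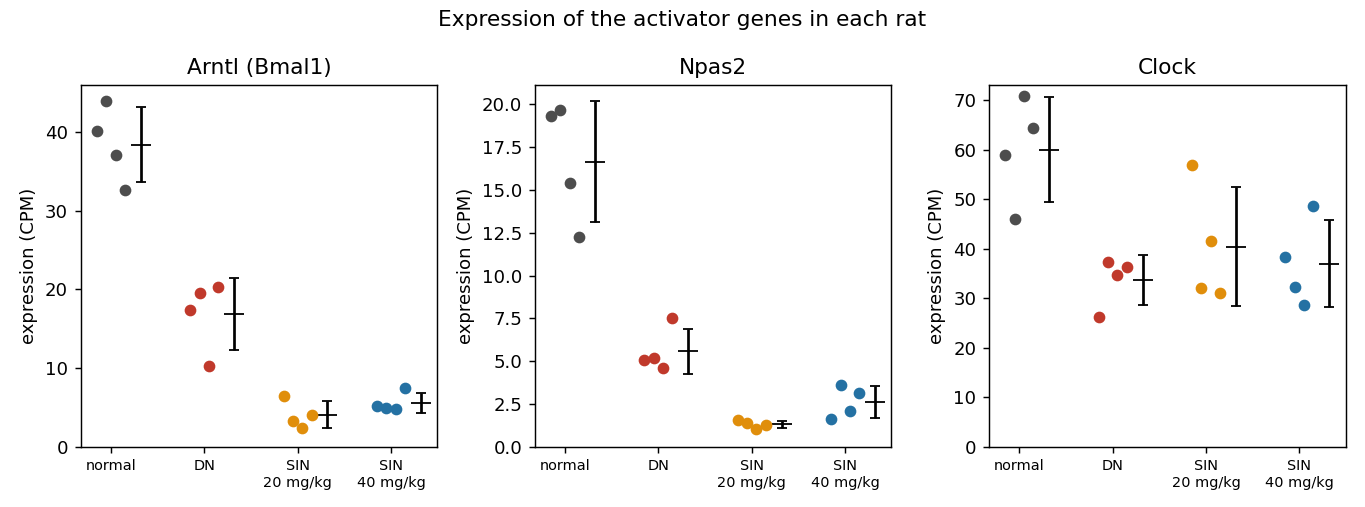
CPM of Arntl, Npas2 and Clock in each of the 16 rats by group (points), with the group mean and SD (bars, n = 4), on a linear axis from 0. For Arntl and Npas2 each SIN rat sits below each DN rat and each DN rat below each normal rat, whereas for Clock the DN and SIN groups overlap.

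The libraries held 19616312 to 25217030 estimated counts each, and Spearman correlations between the 120 pairs of libraries were 0.961 to 0.969. No rat's values were identical to those of another. The renal origin was checked with markers: those of the proximal tubule (Lrp2, Cubn, Slc34a1, Slc5a2, Aqp1) summed to between 8307 and 12400 CPM in every rat, and none of the 38 markers with a row was at 0 throughout. The library serial numbers run in order within each group, so that a processing order and the groups cannot be told apart. Replicate 3 of the DN group stood apart by markers of several cell types. It was above the other DN rats in each urothelial and squamous marker (Upk1b at 21.97 CPM against at most 2.02, Krt5 at 8.47 against at most 0.385), in the smooth muscle gene Myh11 (200 against at most 36.2) and in the adipocyte gene Plin1 (10.1 against at most 1.25). The gap was smaller for the smooth muscle gene Tagln (217 against at most 166) and the adipocyte gene Adipoq (13.2 against at most 10.3). Of the fibroblast markers, Lum was at 8.24 against at most 1.30 CPM, while Col1a1 was at 112 against 98.2 and Pdgfra at 76.4 against 82.0 CPM. The comparisons with DN rats were therefore also made without it, a choice made after the data were seen.

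The first comparison asked how the activators differ between diabetic and normal kidneys, and all 3 members fell in the diabetic kidneys. With edgeR (quasi-likelihood test) and Benjamini-Hochberg adjustment over 15775 genes, the log2 fold change of Arntl was -1.19 (SE 0.20, adjusted p = 0.00738), a 2.28-fold fall. For Npas2 it was -1.58 (SE 0.21, adjusted p = 0.00387), a 2.98-fold fall, and for Clock it was -0.84 (SE 0.16, adjusted p = 0.0107), a 1.79-fold fall. The members' 3 of 3 calls stand against 19.5% of all genes called in this comparison, and their 3 of 3 sets of groups without overlap against 24.3%. Without DN replicate 3 the 3 calls remained, with log2 fold changes of -1.01 for Arntl (adjusted p = 0.00863), -1.49 for Npas2 (0.0114) and -0.85 for Clock (0.0224). Exact permutation tests of the difference in mean log2 CPM gave p = 0.0286 for each member (two-sided, 0.0429 adjusted over 18 member tests), the smallest p that 4 against 4 rats allow.

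The second comparison asked how the activators differed between diabetic rats with and without SIN. At 20 mg/kg the log2 fold change over DN was -2.04 (SE 0.31) for Arntl and -2.08 (SE 0.24) for Npas2, that is 4.11-fold and 4.24-fold lower. Npas2 had the smallest p of all 15724 genes tested, yet neither passed the adjusted threshold, at an adjusted p of 0.141 for Arntl and 0.0585 for Npas2 by edgeR's quasi-likelihood test. That test called 0 genes (0.0%) in this comparison, with 2427 at an unadjusted p under 0.05, whereas DESeq2 called 221 and edgeR's exact test 89. Both Arntl and Npas2 were called by DESeq2 (adjusted p = 2.89e-07 and 2.69e-10), by the exact test (4.66e-06 and 1.99e-08) and in a fit over all 16 rats (0.00883 for each). Arntl and Npas2 were among the 1.1% of genes that combined an unadjusted p under 0.05 with a change of 1 or more on the log2 scale. They were also among the 8.86% whose groups did not overlap. Clock differed by 0.27 on the log2 scale, with a 95% interval from -0.18 to 0.71 and an adjusted p of 0.506. Without replicate 1 of the SIN (20 mg/kg) group that difference was 0.055 (adjusted p = 0.921). Leaving out DN replicate 3 gave -2.22 for Arntl (adjusted p = 0.103), -2.17 for Npas2 (0.0963) and 0.28 for Clock (0.539).

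At 40 mg/kg the values over DN pointed the same way. Arntl had a log2 fold change of -1.57 (SE 0.24, adjusted p = 0.148), or 2.96-fold lower, and Npas2 one of -1.07 (SE 0.28, adjusted p = 0.189), or 2.097-fold lower. Again edgeR's quasi-likelihood test called 0 of 15530 genes (0.0%), with 2657 at an unadjusted p under 0.05, while DESeq2 called 436 and the exact test 161. DESeq2 called Arntl (adjusted p = 7.43e-07) and Npas2 (0.0206), and the exact test called Arntl (4.42e-05). Both members were among the 1.33% of genes past the unadjusted p and the fold threshold, and among the 10.7% whose groups did not overlap. Leaving out DN replicate 3, the rat with the lowest Arntl of its group, gave a log2 fold change of -1.74 for Arntl with an adjusted p of 0.0413, which passed the threshold, and -1.15 for Npas2 with one of 0.176, which did not. Clock differed by 0.16, with a 95% interval from -0.24 to 0.55 and an adjusted p of 0.677, and by 0.17 without that DN rat (0.685).

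The exact permutation test gave p = 0.0286 for Arntl and for Npas2 at either dose (0.0429 adjusted over 18 member tests), and 0.371 and 0.571 for Clock at 20 and 40 mg/kg. The same 4 DN rats stand in both SIN comparisons and in the comparison with normal, so these are not independent. Without DN replicate 3 the groups still did not overlap for Arntl and Npas2 in any of the 3 comparisons with DN rats, nor for Clock in DN over normal, and the exact permutation p was 0.0571 in each case, the smallest that 4 against 3 rats allow.

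Against the normal group both SIN groups had much less Arntl and Npas2. At 20 mg/kg the log2 fold change over normal was -3.23 for Arntl (SE 0.26, adjusted p = 0.000284) and -3.66 for Npas2 (SE 0.21, adjusted p = 6.37e-05), which are falls of 9.35-fold and 12.6-fold. At 40 mg/kg it was -2.76 for Arntl (SE 0.17, adjusted p = 7.42e-05) and -2.66 for Npas2 (SE 0.26, adjusted p = 0.000576), which are falls of 6.80-fold and 6.30-fold. Npas2 at 20 mg/kg and Arntl at 40 mg/kg each had the second smallest p of all genes tested. The quasi-likelihood test called 6.36% of genes at 20 mg/kg and 5.97% at 40 mg/kg, and the groups did not overlap for 13.6% and 13.9% of genes.

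Clock was below normal in both SIN groups without passing the adjusted threshold. Its log2 fold change was -0.57 (SE 0.20, adjusted p = 0.141) at 20 mg/kg and -0.69 (SE 0.18, adjusted p = 0.0510) at 40 mg/kg, and in each dose group 3 of the 4 rats lay below every normal rat. Without replicate 1 of the SIN (20 mg/kg) group the value at that dose was -0.78 (adjusted p = 0.0221), which passed. At 40 mg/kg the value passed without replicate 4 (-0.85, adjusted p = 0.0204), without normal replicate 2 (-0.81, adjusted p = 0.0277) and under 6 of 7 other settings.

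The 2 doses were compared directly. Npas2 was 2.00-fold higher at 40 mg/kg than at 20 mg/kg (log2 fold change 1.00, SE 0.31), and the groups did not overlap, as was so for 3.3% of genes. It was among the 0.722% of genes past an unadjusted p under 0.05 and the fold threshold, but its adjusted p was 0.961 by edgeR's quasi-likelihood test. The exact permutation test gave p = 0.0286. Only 1 gene of 15657 (0.00639%) passed adjustment here, and it was no member. Arntl differed by 0.46 (95% interval -0.20 to 1.12) and Clock by -0.13 (-0.61 to 0.36).

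**Figure D2:**
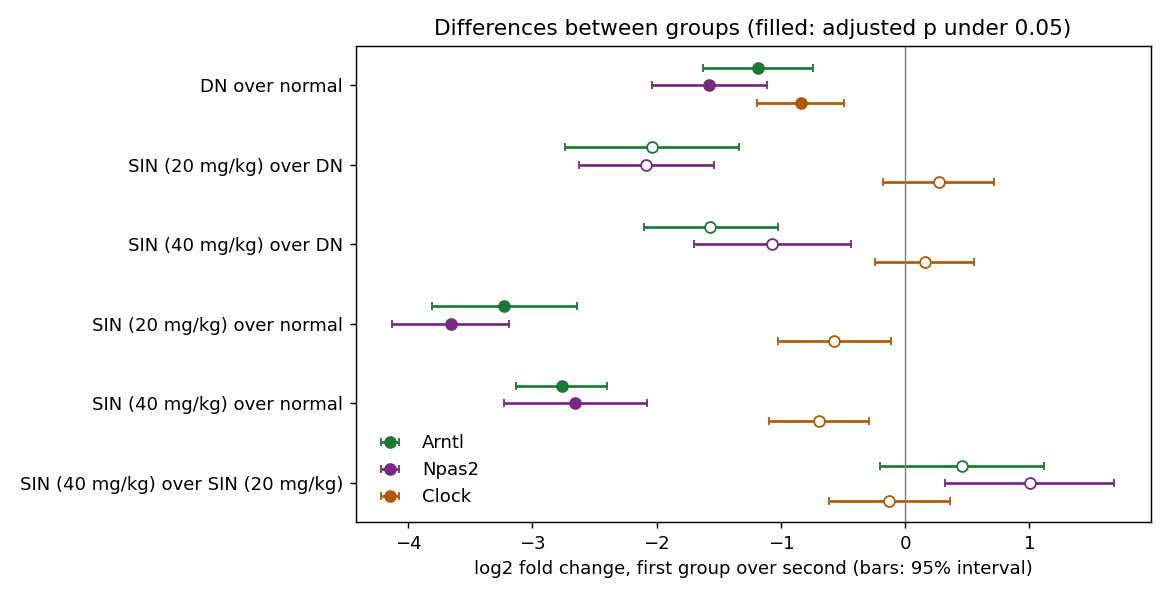
Log2 fold changes of the 3 members in the 6 comparisons with 95% intervals from edgeR's quasi-likelihood fit, where filled points have an adjusted p under 0.05. Arntl and Npas2 lie left of 0 in every comparison with the normal or DN group, while the Clock intervals cross 0 in both SIN over DN comparisons.

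The proportion between partner transcripts was set out per length of the gene model (2973 bases for Arntl, 4273 for Npas2 and 2914 for Clock), since CPM alone cannot be compared between genes. In the normal group the mean level was 12.9 CPM per kilobase for Arntl, 3.898 for Npas2 and 20.6 for Clock. Clock transcripts exceeded Arntl transcripts per kilobase in every rat. The ratio of Clock to Arntl was 1.503, 1.07, 1.95 and 2.02 in the normal group (mean 1.64 ± 0.441, SD, n = 4) and 1.54, 1.95, 3.44 and 1.82 in DN rats (2.19 ± 0.850). It was 8.95, 9.92, 17.5 and 7.76 at 20 mg/kg (11.03 ± 4.396) and 7.56, 6.70, 6.04 and 6.60 at 40 mg/kg (6.73 ± 0.628). The ratio overlapped between normal and DN rats (exact permutation p = 0.400) and was higher in every SIN rat than in every DN rat at either dose (p = 0.0286, or 0.0686 adjusted over 12 ratio tests). The 2 SIN groups did not overlap either, with the lower ratios at 40 mg/kg. The DN value of 3.44 is that of replicate 3, and the other 3 DN rats ran from 1.54 to 1.95 (1.77 ± 0.210, SD, n = 3). Without it the log2 ratio differed from the DN mean by 2.57 at 20 mg/kg and 1.93 at 40 mg/kg, in place of 2.33 and 1.69.

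The ratio of Npas2 to Arntl ran from 0.166 to 0.510 over the 16 rats. It was 0.2996 ± 0.0315 in normal rats, 0.239 ± 0.0581 in DN rats, 0.241 ± 0.0617 at 20 mg/kg and 0.330 ± 0.126 at 40 mg/kg (SD, n = 4). The groups overlapped in each of the 6 comparisons, with differences of -0.35 to 0.43 in the mean log2 ratio and exact permutation p-values from 0.143 to 0.971. After adjustment over the 12 ratio tests the smallest p was 0.0686, so no ratio passed 0.05, and this does not show that the proportion was equal. Without DN replicate 3 the 3 DN ratios (0.184 to 0.257) lay below every normal ratio, with a log2 difference of -0.49 (exact permutation p = 0.0571, the smallest possible). Of the transcripts of the 2 alternative partners, Npas2 and Clock, the share of Npas2 per kilobase was 16.3% ± 5.10 in normal rats, 10.2% ± 2.05 in DN rats, 2.26% ± 0.623 at 20 mg/kg and 4.71% ± 1.77 at 40 mg/kg.

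**Figure D3:**
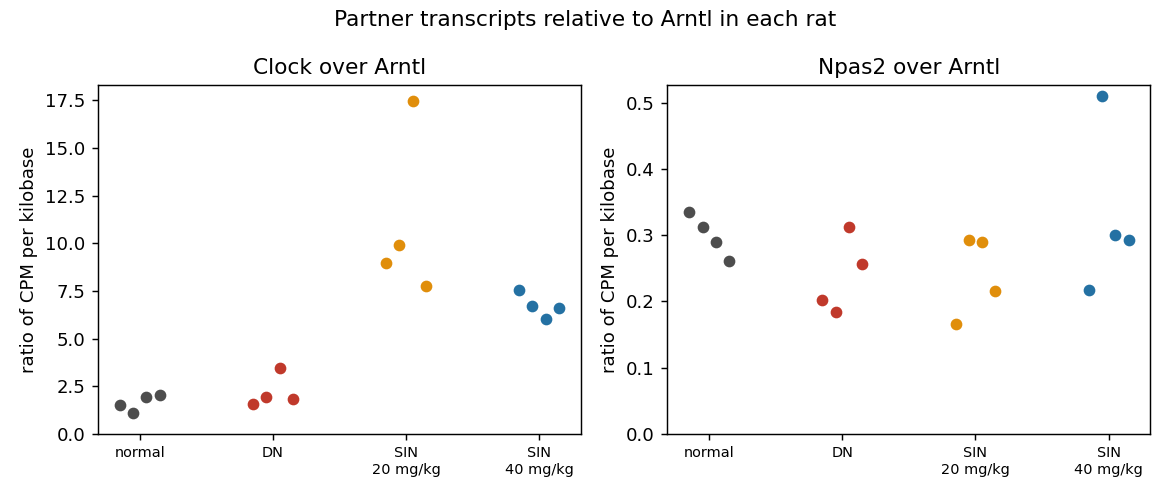
Ratio of Clock to Arntl and of Npas2 to Arntl in each rat by group, in CPM per kilobase of the gene model. The Clock to Arntl ratio lies between 1.07 and 3.44 in the normal and DN rats and between 6.04 and 17.5 in the SIN rats, while the Npas2 to Arntl ratio overlaps in all groups.

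Within groups the members did not all move together. Deviations of log2 CPM from the group mean over the 16 rats correlated between Arntl and Npas2 with Pearson's r = 0.55 (permutation p = 0.0232, 0.0698 adjusted over the 3 pairs) and Spearman's rho = 0.60 (p = 0.0187, 0.0561 adjusted). Without the 2 rats farthest from the median in Arntl, r was 0.52. For Arntl with Clock r was 0.36 and rho 0.33 (permutation p = 0.287 and 0.259), and for Npas2 with Clock r was 0.05 and rho 0.07 (p = 0.877 and 0.820). Without the 2 rats farthest from the median in the first gene of the pair, r was 0.19 for each of these pairs. With adjustment none of the 3 pairs passed 0.05.

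**Figure D4:**
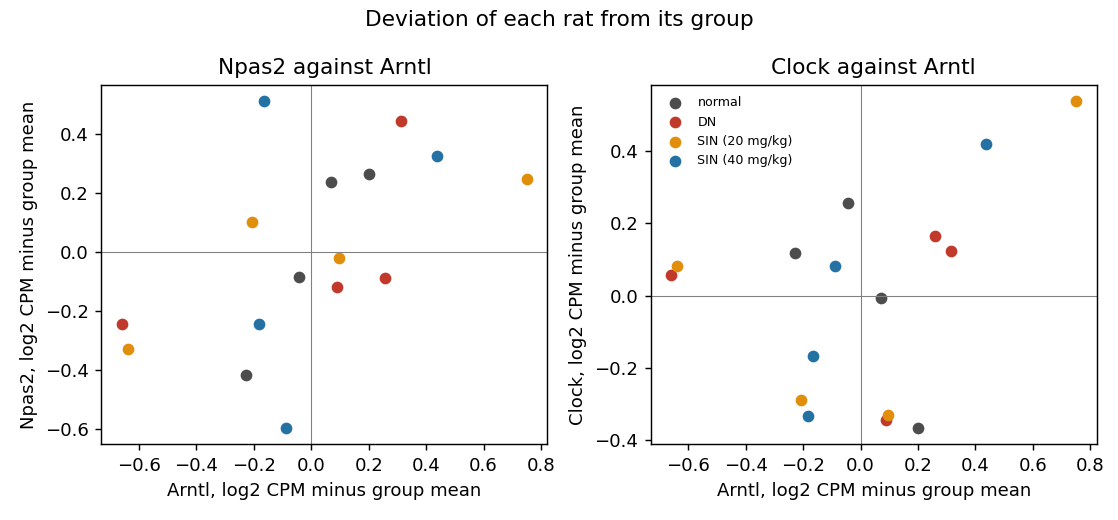
Deviation of each rat's log2 CPM from its group mean for Npas2 against Arntl and for Clock against Arntl, 16 rats coloured by group. Npas2 and Arntl deviate mostly in the same direction (r = 0.55), and Clock and Arntl do so less (r = 0.36).

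Likeness over the same 16 rats is given as a description among 16403 genes, where all genes of a rat share the depth and composition of its library. The genes closest to Arntl were Hpgd, which breaks down prostaglandins (r = 0.90), Socs3, an inhibitor of cytokine signalling (0.85), and Pnrc1 (0.83). The most opposite were Gfra2 (-0.90), the clock repressor Cry2 (-0.89) and Evpl (-0.84). Cry2 was thus low in those rats of a group in which Arntl was high. For Npas2 the closest were Polr3e (0.85), the cytokine gene Il1b (0.85) and Pnrc1 again (0.83), and the most opposite were Triqk (-0.79) and 2 assembled transcripts without a gene name. For Clock they were Zhx1 (0.98), Zfp445 (0.97) and Erbin (0.96), with Cox7a1 (-0.97), Ltbr (-0.95) and Cc2d1a (-0.94) at the other end. Npas2 ranked 270 among the genes most like Arntl and Clock ranked 1530.

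The repressors close the loop on BMAL1, and some of them rose in DN rats. Of 8 listed repressors (Per1, Per2, Per3, Cry1, Cry2, Ciart, Bhlhe40 and Bhlhe41), 7 could be tested in DN over normal. Of these, 3 rose, 0 fell, and 4 did not pass, where 19.5% of all genes were called. The median log2 fold change of the 7 was 0.56, against 0.00 for all genes. Per2 was at 21.3 ± 0.482 CPM in normal and 32.5 ± 7.97 CPM in DN rats (log2 fold change 0.61, SE 0.15, adjusted p = 0.0263). Per3 was at 8.76 ± 1.59 and 17.6 ± 4.33 CPM (1.00, SE 0.20, adjusted p = 0.0128), and Cry2 at 26.2 ± 0.501 and 38.6 ± 6.71 CPM (0.56, SE 0.12, adjusted p = 0.0170). All 3 are partners in the PER and CRY complexes that hold back the activator. None overlapped between the groups, as was so for 24.3% of all genes. Without DN replicate 3, the highest DN rat for each of the 3, these calls remained, with log2 fold changes of 0.43 for Per2 (adjusted p = 0.0281), 0.84 for Per3 (0.0230) and 0.43 for Cry2 (0.0233).

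Over DN, 0 of the 8 repressors passed adjustment at either dose, as did 0.0% of all genes. Per2 was at 68.6 ± 13.7 CPM at 20 mg/kg and 58.3 ± 12.8 CPM at 40 mg/kg, and Per3 at 36.0 ± 5.89 and 34.2 ± 2.30 CPM. Ciart, a repressor of the CLOCK and BMAL1 dimer, was at 0.249 ± 0.105 CPM in normal, 1.87 ± 1.64 in DN, 6.84 ± 2.69 at 20 mg/kg and 8.28 ± 1.42 CPM at 40 mg/kg. It was too low in the normal and DN rats to be tested between them. Ciart could be tested over DN only because of its level in the SIN rats. The SIN over DN counts and medians given here include it. Bhlhe40, a repressor that binds E-boxes, was at 81.3 ± 8.19 CPM in DN rats, 92.3 ± 13.7 at 20 mg/kg and 67.2 ± 18.2 CPM at 40 mg/kg, where its log2 fold change over DN was -0.26 (adjusted p = 0.453). The medians of the list over DN were 0.46 and 0.76 against -0.01 and 0.01 for all genes. At an unadjusted p under 0.05 in the same fits, 4 and 6 of the 8 were higher and 0 were lower, where 2427 of 15724 and 2657 of 15530 genes reached that p in either direction. Without DN replicate 3 the medians were 0.70 and 0.94, and 1 of the 8 passed, Per3 at 40 mg/kg (log2 fold change 1.14, adjusted p = 0.0432). Over normal, 6 of 8 passed with higher values at 20 mg/kg and 7 of 8 at 40 mg/kg, Ciart included, and 0 fell. The medians, also with Ciart, were 1.19 and 1.30. Of all genes, 6.36% and 5.97% were called in these comparisons. Ciart had at most 7 estimated counts in a normal rat and passed the filter only through the SIN rats. It is therefore not taken as a rise. The others that passed were Bhlhe41, Cry1, Cry2, Per2 and Per3 at either dose, and Per1 at 40 mg/kg. Bhlhe41, which competes for E-boxes, rose by 1.36 (adjusted p = 0.0314) and 1.96 (adjusted p = 0.0148).

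The receptors that act on the RORE did not keep a fixed order with Arntl. Nr1d1, a repressor of Arntl, was at 35.2, 38.0, 30.6 and 36.0 CPM in normal rats and at 51.1, 94.2, 73.8 and 74.9 CPM in DN rats. It was at 20.4, 51.2, 55.3 and 57.5 CPM at 20 mg/kg and at 47.4, 85.0, 47.5 and 49.3 CPM at 40 mg/kg. Nr1d1 thus rose in DN over normal (log2 fold change 1.07, SE 0.16, adjusted p = 0.00550), but its SIN values overlapped with the DN values, with log2 fold changes over DN of -0.67 (adjusted p = 0.322) and -0.34 (adjusted p = 0.459). The lowest Nr1d1 value of the SIN (20 mg/kg) group was in replicate 1, the rat with the highest Arntl and the highest Clock of that group. In no other group did the rat with the lowest Nr1d1 also have the highest Arntl. Nr1d1 still rose in DN over normal without DN replicate 3 (1.07, adjusted p = 0.0147). Over normal, Nr1d1 had an adjusted p of 0.439 at 20 mg/kg and 0.0501 at 40 mg/kg.

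Rora, an activator of Arntl, fell in DN over normal (log2 fold change -0.78, SE 0.20, adjusted p = 0.0273), from 17.7 ± 3.55 to 10.3 ± 2.13 CPM, and by 0.83 without DN replicate 3 (adjusted p = 0.0412). At 20 mg/kg it was at 15.8 ± 4.19 and at 40 mg/kg at 14.4 ± 2.17 CPM, with log2 fold changes over DN of 0.62 (adjusted p = 0.284) and 0.50 (adjusted p = 0.231). Of the listed receptors, 3 were tested, and Rorb, with at most 6 estimated counts in a rat, was not. In DN over normal 1 of 3 rose and 1 fell, in each SIN over DN comparison 0 passed, and in each SIN over normal comparison 1 of 3 rose, namely Nr1d2, the second REV-ERB. Of all genes, 19.5% were called in DN over normal and 0.0% in each SIN over DN comparison. Over normal, 6.36% were called at 20 mg/kg and 5.97% at 40 mg/kg. Nr1d2 was at 39.2 ± 9.68 CPM in normal, 39.7 ± 12.7 in DN, 64.1 ± 9.51 at 20 mg/kg and 72.8 ± 13.2 CPM at 40 mg/kg. Each SIN rat lay above each DN rat, with log2 fold changes over DN of 0.69 (adjusted p = 0.270) and 0.89 (adjusted p = 0.188). The groups did not overlap for 8.86% and 10.7% of all genes in these comparisons.

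Dbp, Tef and Hlf are factors of clock output that activate through D-boxes, Dbp under the control of E-boxes of its own, and Nfil3 represses through the same sites. Of the 4, 2 rose in DN over normal (Dbp and Tef) and 0 fell, 0 passed in either SIN over DN comparison, and 3 (Dbp, Hlf and Tef) rose in each SIN over normal comparison. The shares of all genes called were 19.5% in DN over normal and 0.0% in either SIN over DN comparison. They were 6.36% and 5.97% at 20 and 40 mg/kg over normal. The call of Tef in DN over normal was lost without DN replicate 3 (log2 fold change 0.50, adjusted p = 0.0392, against 0.37 and 0.0688), whereas Tef then passed at 40 mg/kg over DN (0.90, adjusted p = 0.0413). Dbp was at 20.4, 26.7, 28.1 and 43.9 CPM in normal rats and 72.6, 107, 145 and 86.1 CPM in DN rats (log2 fold change 1.78, SE 0.27, adjusted p = 0.00524, and 1.57 with 0.0119 without DN replicate 3). It was at 95.6, 207, 202 and 211 CPM at 20 mg/kg and at 178, 223, 214 and 149.5 CPM at 40 mg/kg, where replicate 1 at 20 mg/kg is the only SIN rat within the DN range. Nfil3 was at 8.95 ± 2.47 CPM in normal, 6.71 ± 2.11 in DN, 3.92 ± 1.80 at 20 mg/kg and 3.28 ± 0.381 CPM at 40 mg/kg. It did not pass in DN over normal (log2 fold change -0.41, adjusted p = 0.312) or over DN (-0.77 and -1.02, adjusted p = 0.337 and 0.187), and its groups overlapped there. It fell over normal at 40 mg/kg (log2 fold change -1.44, adjusted p = 0.00480), and at 20 mg/kg its adjusted p was 0.0670.

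**Figure D5:**
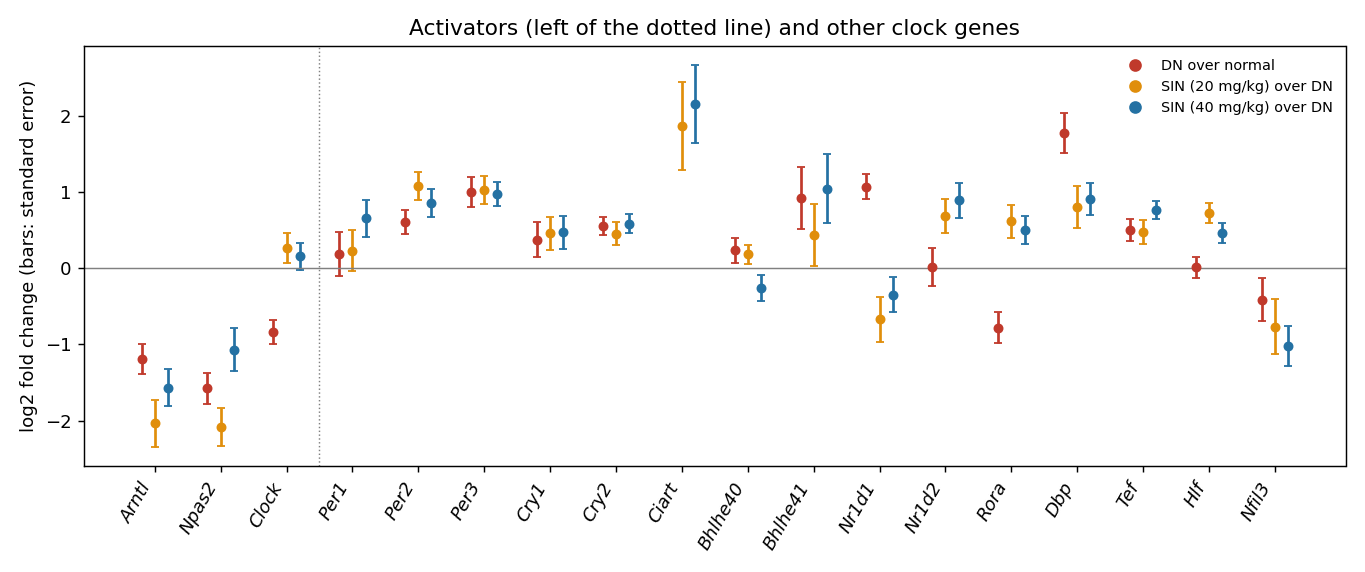
Log2 fold changes with standard errors of the 3 activators (left of the dotted line), the repressors, the receptors and the D-box factors in 3 comparisons. Arntl and Npas2 lie below 0 in all 3, Per2, Per3, Cry2 and Dbp above 0 in all 3, and Clock and Rora below 0 only in DN over normal. Ciart was not tested in DN over normal.

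A list of clock protein modifiers, cofactors and other enzymes tied to the clock showed fewer calls. Of 10 listed, 9 had a row and were tested, since Sirt1 was not analysed here. In each SIN over normal comparison 2 rose and 0 fell: Usp2, a deubiquitinase, by 1.45 and 1.65 (adjusted p = 0.00880 and 0.000812) and Wee1, a cell cycle kinase, by 1.20 and 1.03. The shares of all genes called over normal were 6.36% and 5.97%. Over DN, 0 of 9 passed at either dose, as did 0.0% of all genes.

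The other bHLH-PAS genes give a measure of how far the family as such differed. Arntl2, the paralogue of Arntl, was hardly detected, with at most 3 estimated counts in a rat and counts in 6 of 16 rats. Of the 16 other members of the family listed, 15 had a row, and 12 could be tested in DN over normal. There 0 rose and 1 fell, Hif1a, a transcription factor regulated by oxygen (log2 fold change -0.37, adjusted p = 0.0321), with a median over the 12 of -0.04. Of all genes, 19.5% were called in that comparison. With DN replicate 3 left out Hif1a still fell, by 0.41 (adjusted p = 0.0390). Hif3a, a relative of Hif1a, was too low to be tested with all 4 DN rats. It passed the filter without that rat only through the normal rats, with a log2 fold change of -2.94. With at most 6 estimated counts in a DN rat and 30 in a normal rat, it is not counted as a fall. In the SIN over normal comparisons 0 of 13 passed at either dose, with medians of -0.01 and 0.07, where 6.36% and 5.97% of all genes passed. Arnt, the general partner of the family, was at 48.2 ± 1.56 CPM in normal, 47.5 ± 2.37 in DN, 50.3 ± 1.40 at 20 mg/kg and 50.4 ± 2.65 CPM at 40 mg/kg.

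Markers of cell types were also compared between the groups. The thick limb markers Umod and Slc12a1 summed to 3404 to 4397 CPM in normal rats and 1881 to 3212 CPM in DN rats, with 0 markers of the list at 0. By the quasi-likelihood test Umod was called in DN over normal (log2 fold change -0.77, adjusted p = 0.015). Slc12a1 was not (-0.17, adjusted p = 0.74). The sums of each other list overlapped between normal and DN rats. The 4 smooth muscle markers summed to 86.9 to 193.8 CPM in normal rats, 189.8 to 678 CPM in DN rats, 132 to 173 at 20 mg/kg and 168 to 184 CPM at 40 mg/kg. Each SIN rat thus lay below each DN rat in this sum. The sums of every other list overlapped between SIN and DN rats at either dose. Over all 11 lists, 5 of 36 tested markers were called in DN over normal (2 higher, 3 lower) and 0 in either SIN over DN comparison. Beside Umod these were the smooth muscle gene Tagln (log2 fold change 1.81), Col1a1 (1.08), Pdgfra (-0.41) and the leukocyte gene Ptprc (-0.81). Of all genes, 19.5% were called in DN over normal and 0.0% in either SIN over DN comparison. The part of the markers in the differences of Arntl, Npas2 and Clock was not tested. The highest smooth muscle sum among DN rats was that of replicate 3, and the members' values without that rat stand beside each comparison with DN rats.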

How the data were processed

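The authors enriched mRNA by oligo(dT), sequenced it on an Illumina NovaSeq, removed adapters and low-quality bases (SeqPrep, Sickle) and used TopHat for alignment to Rnor_6.0. The submitters' processing notes also list Bowtie, RSEM and edgeR. The authors deposited 1 table with an estimated count per gene and rat, before normalization, and these values were rounded to whole numbers here. The 16 columns were joined to rats by library number, and 4 columns of no rat were not used.

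Each comparison was fitted on its 2 groups with edgeR 4.0.16 (quasi-likelihood, TMM, filterByExpr) and p-values were Benjamini-Hochberg adjusted over the genes of that fit. Alternatives used DESeq2 1.42.0, edgeR's exact test, RLE, other filters, all 16 rats, a replicate block and each rat left out. After the data were seen, list genes, ratios and exact tests were also computed without DN replicate 3. CPM used TMM factors over 16 rats, and log2 CPM a prior count of 2. Exact permutation tests and Dixon's ratio used SciPy 1.17.1 and Python 3.11.15, with R 4.3.3. Correlations were permuted 100000 times within groups. Steps were tested on simulated data.

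The members and lists were chosen with earlier results of these data known. Genes named are the members, list genes that reach both an unadjusted p under 0.05 and a change of 1 or more on the log2 scale in DN over normal or SIN over DN, and Arntl2, Cry2 and Rora. For likeness they are the 3 highest and 3 lowest correlations. Tef, Hlf, Nr1d2, Wee1, Hif1a, Hif3a, Arnt, Bhlhe40, Cry1, Per1, Myh11, Tagln, Lum, Upk1b, Krt5, Plin1, Adipoq, Col1a1, Pdgfra, Ptprc, Umod and Slc12a1 were named after their values were seen. No source says whether the rats shared a cage or a processing day, and p-values weigh each difference against the spread between these rats. Intervals are for the log2 fold change between groups, not for single rats. Low counts limit the precision of Npas2 in the SIN groups. Some results are not reported here.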

Additional observations from a re-analysis of the deposited data

Results flagged for a closer look

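Of 51 groups of 4 rats examined by Dixon's ratio for the members and named clock genes, 5 had a rat far from the other 3, and chance alone flags about 1 group in 20. Arntl in replicate 4 of the SIN (40 mg/kg) group stood at 7.51 CPM, above 4.86 to 5.19 CPM in the other 3 rats. Replicate 1 of the SIN (20 mg/kg) group was the lowest for Ciart (2.84 CPM, others 7.67 to 8.58), for Dbp (95.6 CPM, others 202 to 211) and for Nr1d1 (20.4 CPM, others 51.2 to 57.5). The same rat had the highest Arntl and Clock of its group. Nr1d1 in replicate 2 of the SIN (40 mg/kg) group stood at 85.0 CPM, above 47.4 to 49.3 CPM in the others.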

How the results depend on the processing

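Of 270 recomputed log2 fold changes of the members, 246 kept their direction and their side of the threshold, 22 kept their direction and passed it, 0 lost a call and 2 changed sign. All 7 calls of Arntl, Npas2 and Clock remained under each alternative. Clock in SIN (40 mg/kg) over DN was -0.015 without replicate 4 of the SIN (40 mg/kg) group, and in SIN (40 mg/kg) over SIN (20 mg/kg) 0.0895 without replicate 1 of the SIN (20 mg/kg) group.

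Values that passed only under an alternative were as follows. With DESeq2 the log2 fold changes over DN were -2.05 (Arntl) and -2.09 (Npas2) at 20 mg/kg and -1.58 (Arntl) and -1.09 (Npas2) at 40 mg/kg, and Clock at 40 mg/kg over normal was -0.69. With edgeR's exact test they were -2.04, -2.08 and, for Arntl at 40 mg/kg, -1.57, with Clock at -0.69. In the fit over all 16 rats Arntl was -2.04 and Npas2 -2.085 at 20 mg/kg, and Arntl -1.58 at 40 mg/kg. With no filter Npas2 was -2.09 (adjusted p = 0.0401) and Clock -0.69 (0.0477), with at least 10 counts in every rat Npas2 was -2.08 (0.0379) and Clock -0.70 (0.0448), and with RLE Clock was -0.69 (0.0499). The cause was not tested.

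Same-numbered rats did not deviate together (24 pairs, r from -0.239 to 0.245, 2 over 0.1, own number best in 3). The replicate block gave -0.70 for Clock at 40 mg/kg over normal (adjusted p = 0.0319), changed no other call of a member, and moved genes called from 3074 to 1325 in DN over normal and from 1 to 0 between the doses.

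Genes called at 20 mg/kg over DN were 221 with DESeq2, 89 with the exact test, 2 with no filter, 2 with at least 10 counts and 13 with all 16 rats. At 40 mg/kg over DN they were 436, 161 and, with all 16 rats, 8. Over normal they were 1726 with DESeq2 at 20 mg/kg, and 1761 with DESeq2 and 1512 with the exact test at 40 mg/kg. Between the doses they were 17, 6 and 0.

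With each rat left out in turn, genes called ran from 769 to 3781 in DN over normal, 0 at 20 mg/kg over DN, 0 to 4 at 40 mg/kg over DN, 551 to 1230 and 462 to 1016 at 20 and 40 mg/kg over normal, and 0 to 5 between the doses. The log2 fold change of Clock ran from 0.055 to 0.37 at 20 mg/kg over DN, from -0.015 to 0.26 at 40 mg/kg over DN, from -0.78 to -0.46 and from -0.85 to -0.59 at 20 and 40 mg/kg over normal, and from -0.28 to 0.0895 between the doses. That of Arntl ran from -1.29 to -1.01 in DN over normal, from -2.36 to -1.86 at 20 mg/kg over DN and from -1.75 to -1.47 at 40 mg/kg over DN. Among list genes without DN replicate 3, Nr1d2 and Hlf in DN over normal went from 0.016 and 0.013 to -0.16 and -0.064.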
